A study of Rattus norvegicus with 12 samples.

Results

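The genes described here are 10 serpins of rat liver: Serpina1, Serpina3c, Serpina3m, Serpina3n, Serpina4, Serpinc1, Serpind1, Serpina6, Serpinf1 and Serping1. They were listed by symbol and matched to the deposited gene names, which hold 32883 rows. A row was found for 9 of the 10, and Serpina3n was not analysed here. Each of these 9 serpins passed the filter on low counts in every comparison tested, and each had at least 1 UMI (unique molecular identifier, a tag that counts 1 captured transcript) in the hepatocyte-like class of all 10 single-cell and single-nucleus libraries. A further 31 rows carry a symbol that starts with Serpin and are used here only as the rest of the family.

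Serpins are a family of secreted and intracellular proteins with a shared fold, and most of them inhibit serine proteases by offering a bait loop that traps the enzyme in a covalent complex. Hepatocytes release many serpins into plasma, where they restrain blood clotting, complement, kinin release and the proteases of inflammatory cells. A few members have lost the inhibitory function and carry hormones or act as signals instead.

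The series profiled livers of healthy male rats. Total liver homogenate (TLH) cells came from 2 Dark Agouti (DA) and 2 Lewis (LEW) rats after collagenase digestion, with 10x 3′ v2 chemistry. Nuclei of snap-frozen liver came from 2 DA and 2 LEW rats, and immune-enriched suspensions, which had extra washes and red cell depletion, from 1 DA and 1 LEW rat, both with v3 chemistry. Visium spatial transcriptomics was run on 2 sections of Wistar liver, which the study describes as samples of 2 rats. No transgene is named in the labels, and the inbred strains were the contrast set by design. By the study's methods the rats for cells and nuclei were under isoflurane and had heparin injected into the vena cava before liver collection. Heparin is an anticoagulant that acts through antithrombin. The methods do not give this step for the Wistar tissue. The sample names of the cell libraries carry the word SHAM. The series text gives an age of 8 to 10 weeks, the sample names give 10 weeks for the DA and 13 weeks for the LEW rats of the TLH libraries and 9 weeks for the immune-enriched rats, and the study's methods give an older age. Strain and age can therefore not be told apart in TLH cells. The nuclei are described as coming from further rats, although their names reuse the animal numbers of the TLH rats. Matched by those animal numbers, DA replicate 1 of TLH would be DA replicate 2 of nuclei and the reverse. Nothing else in the labels ties libraries to a batch. With 2 rats per strain the p-values rest on few rats and on a variance that the tests share between genes. They do not measure the spread of each gene between these rats alone.

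The deposited counts summed to between 61441846 and 92484173 UMIs per TLH library, between 8039397 and 15186970 per library of nuclei, 48255870 and 60005133 in the immune-enriched pair, and 34449562 and 34827603 in the sections. After the filters on cells, 16512 of 23036 TLH cells, 10636 of 12525 nuclei and 1276 of 3840 immune-enriched cells fell in clusters led by hepatocyte markers, and they are called hepatocyte-like. Alb, the albumin gene and the defining transcript of this class, stood at 25393 to 31461 CPM (UMIs of the gene scaled to a fixed total of the class, counts per 1000000) in hepatocyte-like TLH cells, 23042 to 41703 CPM in nuclei and 38284 and 49111 CPM in immune-enriched cells. Alb was also at 13743 to 21464 CPM in all other TLH cells and at 33934 to 47044 CPM in all other nuclei, so neither set of other cells was free of hepatocyte transcripts. In the immune-enriched samples the same value was 904 CPM in the DA rat and 8110.02 CPM in the LEW rat. Hepatocyte RNA was therefore tracked throughout by a reference list of 10 abundant hepatocyte transcripts: Alb, Apoa1, Apoa2, Apoc1, Apoc3, Fabp1, Ttr, Hp, Fgb and Gc. Apoc1 has 2 rows, so summed values of this list rest on 11 rows.

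The region just before the transcription start is shown for 3 members whose levels frame the results: Serpina1, the most abundant, Serpina4, the member with the widest range between hepatocyte clusters, and Serpinc1, the member that stood apart between cells and nuclei. The sequences are the 250 bases before the start in RefSeq's GRCr8 assembly, where 5 of the 9 serpins had an entry. They lie upstream of the first exon at chr6:128653126-128653375 (minus strand) for Serpina1, chr6:128764532-128764781 (plus strand) for Serpina4 and chr13:75790308-75790557 (plus strand) for Serpinc1. Capitals mark matches to TTNCNNAA, a C/EBP-type motif, or to GTTAAT, an HNF1 half-site, searched on both strands.
Serpina1: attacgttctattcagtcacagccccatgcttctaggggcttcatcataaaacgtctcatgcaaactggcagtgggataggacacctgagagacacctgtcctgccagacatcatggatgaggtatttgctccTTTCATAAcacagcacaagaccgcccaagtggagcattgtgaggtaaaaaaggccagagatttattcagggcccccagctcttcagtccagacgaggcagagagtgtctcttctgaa
Serpina4: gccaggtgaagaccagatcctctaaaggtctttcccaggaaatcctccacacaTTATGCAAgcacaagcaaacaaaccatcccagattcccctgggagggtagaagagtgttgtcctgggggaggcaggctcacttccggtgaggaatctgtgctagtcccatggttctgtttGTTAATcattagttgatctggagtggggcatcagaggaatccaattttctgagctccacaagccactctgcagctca
Serpinc1: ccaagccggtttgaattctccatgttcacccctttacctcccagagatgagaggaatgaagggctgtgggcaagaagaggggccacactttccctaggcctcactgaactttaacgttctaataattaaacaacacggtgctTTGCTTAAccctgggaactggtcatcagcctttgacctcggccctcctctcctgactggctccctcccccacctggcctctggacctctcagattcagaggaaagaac
Each of the 5 serpin regions in the table, including those of Serpina3m and Serpinf1, held 1 match to TTNCNNAA, which 37.2% of 33469 regions of the same length held. The match started 117 bases before the start in Serpina1, 197 in Serpina4 and 108 in Serpinc1. Serpina4 alone of the 5 held GTTAAT, 77 bases before the start, against 6.45% of all regions. None of the 5 held the HNF4-type motif CAAAGTCCA or the TATA motif TATAAA, which 0.338% and 12.9% of all regions held. Such matches describe letters and not factor binding, which was not measured.

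Among the broad protease inhibitors, Serpina1 and Serpina3c dominated the hepatocyte-like class. Serpina1 encodes alpha-1-antitrypsin, the main inhibitor of neutrophil elastase in plasma. It stood at 6413 and 9202 CPM in the DA TLH rats and at 10668 and 10372 CPM in the LEW TLH rats. In hepatocyte-like nuclei it stood at 5235 and 4033 CPM in DA and 7317 and 4768 CPM in LEW. By level it ranked between place 13 and place 22 among all genes in these 8 sums, so few hepatocyte transcripts were more abundant. Serpina3c and Serpina3m belong to the expanded rodent group of genes related to human alpha-1-antichymotrypsin. Serpina3c stood at 4375 and 3650 CPM in DA and 3249 and 2453 CPM in LEW hepatocyte-like TLH cells. In nuclei it stood at 3077 and 3128 CPM in DA and 2833 and 2528 CPM in LEW. Its rank ran from place 27 to place 46. Serpina3m, its close relative, was lower at 260 to 378 CPM in TLH cells and 225 to 362 CPM in nuclei. Members of this group resemble one another closely, so reads could be split between copies and these levels are uncertain to that extent. Serpina4, which encodes the tissue kallikrein inhibitor kallistatin, stood at 394 to 509 CPM in TLH cells and 354 to 577 CPM in nuclei.

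The inhibitors of clotting and complement lay well under Serpina1. Serpinc1 encodes antithrombin, the main inhibitor of thrombin and factor Xa. It stood at 570 to 891 CPM in hepatocyte-like TLH cells and at 966 to 1126 CPM in nuclei, the single member whose range in nuclei lay wholly above its range in cells. Serpind1 encodes heparin cofactor II, a second thrombin inhibitor, and stood at 319 to 449 CPM and 286 to 592 CPM. Serping1 encodes the C1 inhibitor, which blocks the C1r and C1s proteases of complement as well as plasma kallikrein, and stood at 222 to 336 CPM and 243 to 303 CPM.

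The members without a protease target were among the lowest. Serpina6 encodes corticosteroid-binding globulin, the plasma carrier of glucocorticoids, and stood at 253 to 306 CPM in TLH cells and 188 to 364 CPM in nuclei. Serpinf1 encodes pigment epithelium-derived factor, a secreted factor that restrains vessel growth, and stood at 245 to 336 CPM and 252 to 388 CPM. Ordered by mean, each member under Serpinc1 overlapped its neighbours in the order over the rats of a platform, so their order is not fixed beyond the spread between rats. These 3′ counts give 1 tag per transcript and are not scaled by transcript length.

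**Figure D1:**
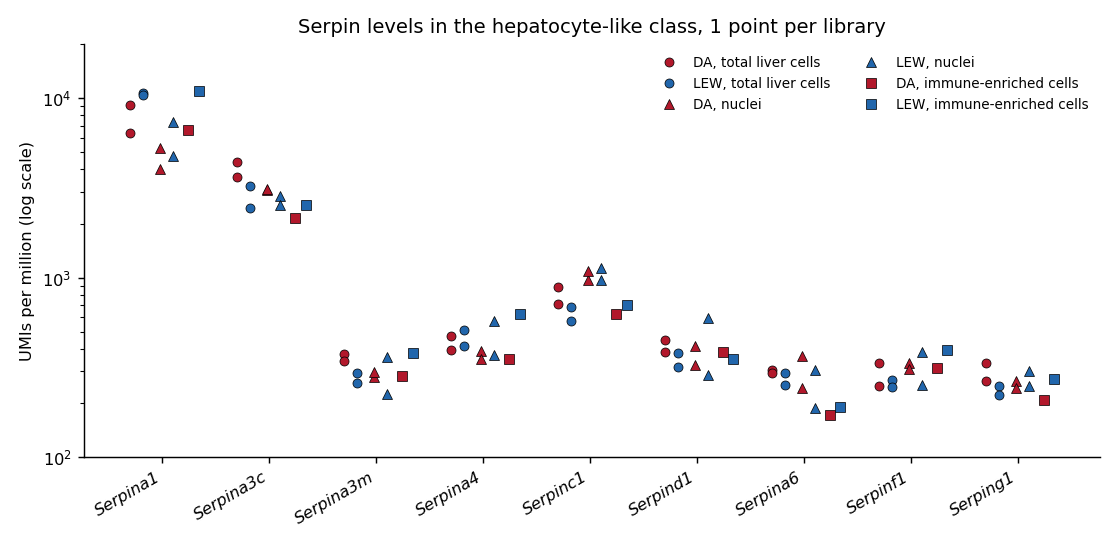
CPM (log axis) of the 9 serpins in the hepatocyte-like class, 1 point per library, with colour for strain and marker shape for TLH cells, nuclei and immune-enriched cells. Serpina1 lies between 4033 and 10877 CPM and Serpina3c between 2137 and 4375 CPM, above the other 7 members in all 10 libraries.

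Summed, the 9 serpins took 1.35% to 1.66% of all UMIs of hepatocyte-like TLH cells and 0.983% to 1.38% of those of nuclei. Serpina1 and Serpina3c together made up 79.7% to 84.9% of that sum in TLH cells and 70.0% to 74.8% in nuclei. The balance between both differed between libraries: Serpina1 was 47.4% and 57.8% of the serpin sum in the DA TLH rats and 64.2% and 68.6% in the LEW TLH rats. In nuclei the share was 47.1% and 39.4% in DA and 53.0% and 48.5% in LEW. The LEW rats were the higher on both platforms without overlap, and this order was not tested. The reference list took 10.6% to 12.0% of UMIs in TLH cells and 5.69% to 10.3% in nuclei.

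Hepatocyte-like cells were not alike in their serpins. The TLH cells formed 8 hepatocyte-like clusters, which were drawn without any serpin gene, and cluster 2 had the highest level of Serpina3c, Serpina3m, Serpina4, Serpinc1, Serpind1, Serpina6 and Serpinf1. Serpina4 ranged most, from 285 CPM in cluster 15 to 934 CPM in cluster 2, a ratio of 3.27. For the other 6 of these genes the highest cluster was 2.07 to 2.73 times the lowest. Serpina1 was the flattest member, from 7410 to 10376 CPM, a ratio of 1.40, and Serping1, highest in cluster 8, had a ratio of 1.73. The reference list had a ratio of 1.21 over the same clusters. Among the 23 hepatocyte-like clusters of nuclei the ratio ran from 2.90 for Serpinc1 to 11.1 for Serpina4, which stood at 105 CPM in cluster 22 and 1172 CPM in cluster 13, but the reference list itself had a ratio of 6.72 there. Cluster 22 of the nuclei was the lowest for Serpina1, Serpina3c, Serpina4, Serpinc1 and Serping1 and for the reference list alike. Depth differed between these clusters too: cluster 22 held 2470667 UMIs in 285 nuclei and cluster 13 held 523685 UMIs in 422 nuclei. The cluster levels pool the rats of both strains within a platform. The part of depth, rat or strain in the cluster ratios was not tested.

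The genes whose pattern was most like each serpin were named by the correlation of log2(CPM + 10) over the 56 class-by-library sums of TLH cells and nuclei, with each platform centred on its own mean. Many points share a library and its depth, so the values only describe these sums. Serpina1 was closest to Rbp4 (r = 0.91), Apoh (r = 0.90) and Gc (r = 0.90), all secreted by hepatocytes, and Serpinc1 to Alb (r = 0.91), Hp (r = 0.90) and Itih4 (r = 0.90). Serpina4 was closest to Alb (r = 0.90), Apoh (r = 0.89) and Tf (r = 0.88). Serpind1 was closest to Azgp1 (r = 0.89), Itih4 (r = 0.89) and Serpinc1 (r = 0.88). Correlations among the hepatocyte serpins were generally high, with Serpinc1 at 0.84 and Serpind1 at 0.82 against Serpina3m. Serpina3c was close to LOC100910877 (r = 0.94), an unnamed locus whose relation to the serpins and shared reads were not checked, and to Pgrmc1 (r = 0.91). Serpina3m was closest to Clu (r = 0.87), F2 (r = 0.84) and AABR07048474.1 (r = 0.84). Serpinf1 was closest to Tmem86b (r = 0.89), Lcat (r = 0.87) and Hsd17b11 (r = 0.85), and Serpina6 to Ebp (r = 0.81), Hrg (r = 0.79) and Serpinc1 (r = 0.78). Serping1 had the weakest likeness, with Ifi27l2b (r = 0.70), Apoe (r = 0.70) and Pttg1ip (r = 0.68), and its correlation with the other 8 serpins was 0.38 to 0.60.

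Serping1 also differed from the other 8 serpins in where it was found. Classes were set by clustering the same cells, so these ratios are a description with no test. In TLH cells the hepatocyte-like level divided by that of all other cells ran from 1.27 to 2.35 for the 8 other members and from 0.886 to 0.986 for Serping1, while the reference list ran from 1.23 to 1.53. By its median over the 4 rats Serpina1 (1.40) was near the reference list (1.39), while the other 7, with medians of 1.59 for Serpinc1 to 2.09 for Serpina4, lay above the highest value of that list. In the immune-enriched samples, where other cells held less hepatocyte RNA, the same ratio was 4.38 to 62.4 for the 8 members, 5.23 and 30.2 for the reference list, and 1.09 in the DA and 0.943 in the LEW rat for Serping1. In nuclei the ratio was 0.582 to 1.13 for all 9 members and 0.626 to 0.921 for the reference list, and this set of other nuclei includes 795 nuclei in clusters without a name that were rich in hepatocyte transcripts. Without the unnamed clusters the direction turned, and the median log2 ratio over the 9 members went from -0.23 to 0.72.

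In the immune-enriched samples Serping1 stood at 434 CPM in Kupffer-like cells of the DA rat and 545 CPM in those of the LEW rat, against 209 and 273 CPM in hepatocyte-like cells. It stood at 592 and 345 CPM in endothelial-like cells and 333 and 389 CPM in mesenchymal-like cells. These 3 classes were at 1.26 to 2.83 times the hepatocyte-like level in both rats. Lymphocyte-like cells had 1 UMI (1.01 CPM) in the DA rat and 20 UMIs (32.3 CPM) in the LEW rat, and B cell-like cells of the DA rat had 0 of 190064 UMIs, which allows up to 15.8 CPM. The reference list was at 0.00905 and 0.0550 of its hepatocyte-like level in Kupffer-like cells and at 0.0148 and 0.120 in lymphocyte-like cells. Serping1 thus exceeded the level of hepatocyte RNA in resident macrophages, endothelium and mesenchyme and not in lymphocytes. In TLH cells the Kupffer-like to hepatocyte-like ratio of Serping1 was 1.27, 1.23, 1.39 and 1.55 in the 4 rats, above 1 in each, while for the 8 other members it was 0.318 to 0.703. In nuclei it was 0.665 to 1.02, from only 20 to 34 UMIs per rat.

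**Figure D2:**
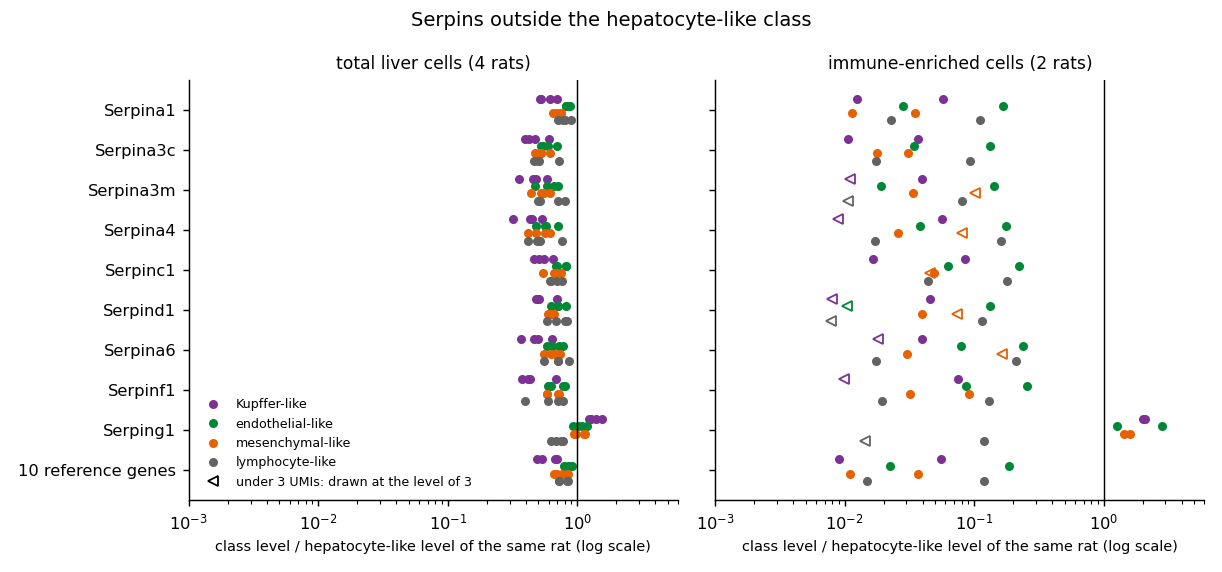
Ratio of the CPM in 4 other classes to that in hepatocyte-like cells (log axis), 1 point per rat, in TLH cells (left, 4 rats) and immune-enriched cells (right, 2 rats), with the reference list in the last line and open triangles for sums under 3 UMIs drawn at the level of 3 UMIs. Serping1 is to the right of 1 in Kupffer-like cells of all 6 rats, while the other 8 serpins are to the left of 1 in these classes.

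Serpin transcripts were as frequent in the shallowest TLH barcodes. The lowest 10% of barcodes by depth gave a summed serpin level of 13002, 16119.7, 16503 and 15129 CPM in the 4 TLH rats, against 13544, 15907, 16603 and 15109.6 CPM in hepatocyte-like cells. In the immune-enriched samples it was 2542 CPM in the DA rat and 18279 CPM in the LEW rat. Whether these barcodes hold free RNA or shallow or damaged hepatocytes was not tested, and how much free RNA each class holds was not estimated.

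The strain comparison asked whether DA and LEW hepatocytes differ in these serpins. In hepatocyte-like TLH cells 0 of the 9 passed an adjusted p of 0.05 in edgeR's quasi-likelihood test and 0 of 9 passed in DESeq2, against 4.36% of 9929 genes tested with edgeR, 2.07% higher and 2.29% lower in LEW. An unadjusted p under 0.05 was reached by Serpina1, Serpina3c and Serpina3m, 3 of 9 in edgeR, and by 2139 of the 9929 genes. The values of Serpina1 given above place both LEW rats over both DA rats, by 0.45 ± 0.19 on the log2 scale (SE, adjusted p = 0.219 in edgeR). DA replicate 1 had the lowest level of the 4, and the difference was 0.19 without it and 0.78 without DA replicate 2. Serpina3c went the other way, with both DA rats over both LEW rats by 0.47 (log2 LEW over DA -0.47 ± 0.16, SE, adjusted p = 0.145 in edgeR). Serpina3m, its relative, also had both DA rats on top (378 and 345 CPM against 295 and 260 CPM, log2 -0.35 ± 0.13, SE, adjusted p = 0.174 in edgeR). With no filter on low counts Serpina1 and Serpina3c passed (adjusted p = 0.0241 and 0.0129 in edgeR), and with a stricter filter on cells Serpina3c passed (log2 -0.56, adjusted p = 0.0256 in edgeR). Over all genes 1140 of 15903 and 169 of 5228 were called in these fits.

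The remaining 6 serpins lay within 0.34 of 0 on the log2 scale in the same comparison. Serpinc1 had 713 and 891 CPM in DA and 690 and 570 CPM in LEW (log2 -0.33 ± 0.16, SE), and Serping1 had 267 and 336 CPM in DA and 249.7 and 222 CPM in LEW (log2 -0.33 ± 0.16, SE). Serpind1, Serpinf1 and Serpina6 were at -0.22, -0.17 and -0.11 and Serpina4 at 0.12. The strains did not overlap for 7 of the 9 serpins, 6 with DA above LEW and Serpina1 with LEW above DA, but 53.2% of all genes tested did not overlap either. The median over the 9 serpins was -0.22, and that of all genes tested was -0.01.

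Hepatocyte-like nuclei gave no strain call in any serpin. With edgeR 0 of 9 passed, 0 of 9 had an unadjusted p under 0.05 and DESeq2 called 0 of 9, against 1.18% of 10678 genes tested with edgeR, 0.478% higher and 0.702% lower in LEW. Of all these genes 1152 had an unadjusted p under 0.05. Serpina1 was again the higher in LEW (log2 0.40 ± 0.47, SE) and Serpina3c again the higher in DA (log2 -0.20 ± 0.43, SE), but the rats of Serpina1 overlapped and both errors exceeded the values. Serpina3c alone of the 9 did not overlap between strains, against 37.8% of all genes. LEW replicate 1 stood above the other LEW rat for all 9 members, and without it 7 of the 9 differences changed sign. The difference of the strain effect between cells and nuclei passed for 0 of 9 serpins with edgeR (0 at an unadjusted p under 0.05, 0 with DESeq2, 0.00853% of 11719 genes called), with values from -0.48 for Serpind1 to 0.17 for Serpina6 on the log2 scale.

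**Figure D3:**
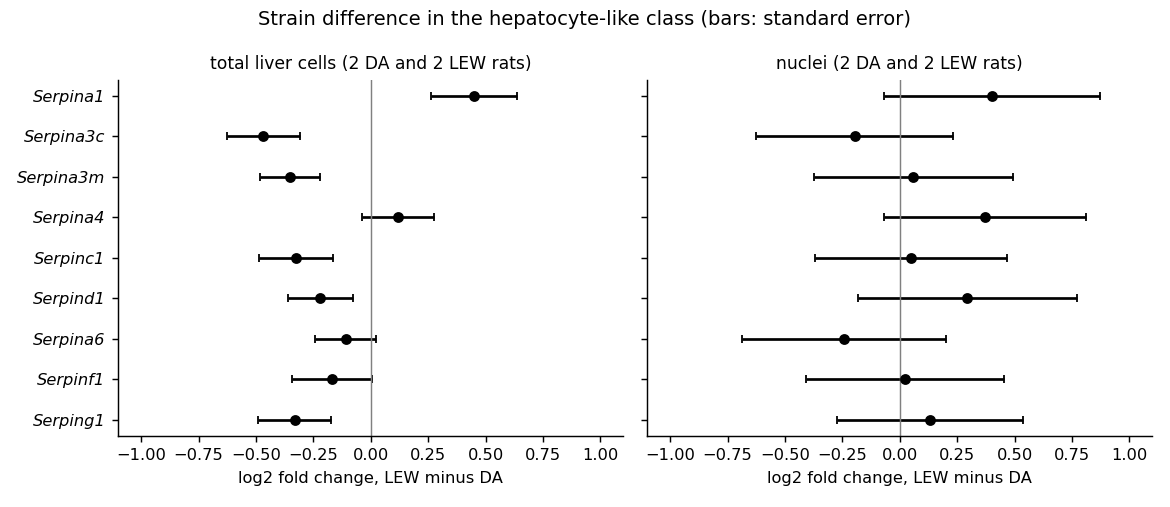
Log2 fold change of LEW over DA with its SE for the 9 serpins in hepatocyte-like TLH cells and hepatocyte-like nuclei (edgeR, 2 rats per strain). Serpina1 lies at 0.45 in cells and 0.40 in nuclei and Serpina3c at -0.47 and -0.20, and the errors in nuclei, 0.41 to 0.48, are wider than those in cells, 0.13 to 0.19.

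With 1 immune-enriched rat per strain there was no test, and intervals cover counting error only. In hepatocyte-like cells Serpina1 was 1.64 times as high in the LEW rat (95% interval 1.62 to 1.66), from 6631 to 10877 CPM, and Serpina4 was 1.76 times as high (1.68 to 1.85), from 354 to 623 CPM. Serpina3c was 1.18 times as high (1.16 to 1.21), and Serpind1 was the single member lower in LEW, at 0.911 (0.867 to 0.957). The other 5 members ran from 1.11 for Serpina6 to 1.34 for Serpina3m, and the reference list was 1.38 times as high in the LEW rat. With the stricter filter on cells the median log2 difference over the 9 members moved from 0.34 to 0.016, far beyond the counting intervals. In all other cells 8 members were 4.82 to 10.7 times as high in the LEW rat, beside 7.98 for the reference list, while Serping1 was 1.51 times as high.

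Outside the hepatocyte-like class Serpina3c was the member that passed. In all other TLH cells it stood at 2261 ± 115 CPM in DA and 1363 ± 228 CPM in LEW (SD, n = 2 rats each), without overlap. The log2 difference was -0.80 ± 0.17 (SE, adjusted p = 0.0210 in edgeR), and it was the 1 of 9 serpins called, against 7.79% of 9665 genes tested, 3.6% higher and 4.19% lower in LEW. It was not called without LEW replicate 1 (adjusted p = 0.162 in edgeR) or LEW replicate 2 (adjusted p = 0.265 in edgeR). Without DA replicate 1, and with no filter on low counts, 6 of the 9 serpins passed, and without DA replicate 2 it was 2. The genes called in these fits also rose, to 1228 of 9958, 1427 of 15865 and 1066 of 9982. In mesenchymal-like TLH cells alone Serpina3c stood at 2283 ± 46.5 CPM in DA and 1419 ± 176 CPM in LEW (SD, n = 2 rats each), a log2 difference of -0.77 ± 0.17 (SE, adjusted p = 0.0192 in edgeR), again as 1 of 9 serpins against 2.69% of 5322 genes, 1.16% higher and 1.52% lower in LEW. This call was lost without LEW replicate 1 (adjusted p = 0.0942 in edgeR) and without LEW replicate 2 (adjusted p = 0.299 in edgeR), with the cells of highest doublet score left out (adjusted p = 0.0776 in edgeR), and with a limit of 1500 UMIs for LEW cells (adjusted p = 0.156 in edgeR). Of the 9 serpins, 7 did not overlap between strains in mesenchymal-like cells, all with DA above LEW as for the reference list, against 47.3% of all genes. The 2 classes overlap, since mesenchymal-like cells are part of the others. The mix of classes among other TLH cells differed between strains. Mesenchymal-like cells were 408 of 2060 and 564 of 2421 other cells in DA, and 113 of 1150 and 112 of 893 in LEW. Kupffer-like cells were 434 and 561 of them in DA and 271 and 300 in LEW. The part of this mix in the strain values of other TLH cells was not tested.

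Hepatocyte transcripts in these cells moved in the same direction as this result. The reference list in other TLH cells was at 88788 ± 4347 CPM in DA and 75404 ± 5260 CPM in LEW (SD, n = 2 rats each), without overlap, and 7 of the 9 serpins did not overlap there, all 7 with DA above LEW, against 54.2% of all genes. In the lowest-depth TLH barcodes Serpina3c was at 4297 and 3560 CPM in DA and 2886 and 2257 CPM in LEW. The part of free RNA in the Serpina3c difference was not tested. With library-size scaling in place of TMM the genes called in other TLH cells moved from 348 higher and 405 lower in LEW to 466 higher and 327 lower, with the median of all genes at 0.05 in place of -0.02, and Serpina3c kept its call. In all other nuclei 0 of 9 serpins passed with edgeR, 0 had an unadjusted p under 0.05 and DESeq2 called 0, against 1.6% of 9067 genes, 0.607% higher and 0.993% lower in LEW. Of all these genes 1060 had an unadjusted p under 0.05. There, 4 of 9 serpins did not overlap between strains, against 39.3% of all genes. Library-size scaling moved the calls among other nuclei from 55 higher and 90 lower to 62 higher and 161 lower, with the median from 0.01 to -0.10.

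Cells and nuclei differ in chemistry, sequencer, tissue handling and rats together, and these cannot be told apart. In hepatocyte-like sums scaled by TMM, 8 of the 9 serpins were higher in cells with edgeR, against 34.8% of 11222 genes called higher, 38.4% called lower and 73.1% called in either direction. Serpina1 rose most, by 1.67 ± 0.27 on the log2 scale (SE, adjusted p = 0.000107 in edgeR), followed by Serpina3c at 1.13, Serpina3m at 1.02, Serpina4 at 0.98, Serpina6 at 0.96, Serping1 at 0.91, Serpind1 at 0.81 and Serpinf1 at 0.67. Serpinc1 was at 0.36 ± 0.22 (SE, adjusted p = 0.145 in edgeR). The reference list had 9 of its 10 genes higher in cells, with a median of 1.60.

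These directions depended on the scaling. TMM factors were 0.711 to 0.769 in cells and 1.26 to 1.51 in nuclei, and library-size scaling moved the median of all genes from -0.09 to -1.0 and the calls from 3901 higher and 4307 lower to 1862 higher and 6926 lower. On that scale 2 of 9 serpins passed with edgeR: Serpina1 stayed higher in cells by 0.77 ± 0.21 (SE, adjusted p = 0.00348 in edgeR), and Serpinc1 was lower in cells, at -0.55 ± 0.19 (SE, adjusted p = 0.0151 in edgeR). The other 7 lay between -0.23 and 0.23. On both scales Serpina1 was the highest of the 9 against nuclei and Serpinc1 the lowest, and all 9 were above the median of all genes. Mitochondrial transcripts took 7.14% to 9.62% of UMIs in cells and 2.79% to 3.66% in nuclei, and without them the library-size values were 0.85 for Serpina1 and -0.47 for Serpinc1. With TMM, Serpind1 was not called without DA nuclei replicate 1 (adjusted p = 0.0522 in edgeR) or DA nuclei replicate 2 (adjusted p = 0.0508 in edgeR). Serpinf1 was not called without DA TLH replicate 2 (adjusted p = 0.0796 in edgeR) or DA nuclei replicate 2 (adjusted p = 0.0790 in edgeR), and Serpinc1 was called without LEW nuclei replicate 1 (log2 0.46, adjusted p = 0.0228 in edgeR).

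**Figure D4:**
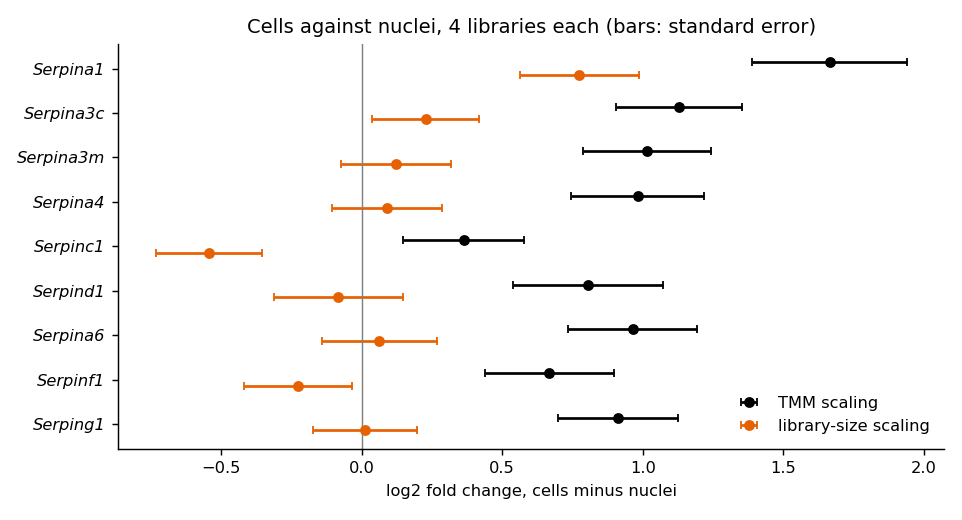
Log2 fold change of TLH cells over nuclei with its SE in the hepatocyte-like class (edgeR, 4 libraries each), with TMM scaling in black and library-size scaling in orange. Under TMM all 9 serpins lie between 0.36 and 1.67; under library-size scaling Serpina1 (0.77) and Serpinc1 (-0.55) are the members called, on opposite sides of 0, and Serpinc1 is not called under TMM.

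Zone was read in nuclei from a score of 10 periportal and 8 pericentral landmark genes with no serpin among them, and the nuclei of each rat were split by score into 3 equal groups. The upper group is called periportal and the lower pericentral, after the ends of the lobule where portal blood enters and leaves. The periportal landmarks were 2.15 to 3.52 times as high in the upper group, and the pericentral landmarks 0.233 to 0.351 times, which the split itself fixes. A second periportal list of 7 genes, which shares Ass1 and Gls2 with the first, was lower in the upper group, at 0.468 and 0.552 times in the DA and 0.888 and 0.826 times in the LEW rats, against the name of the group. The names periportal and pericentral therefore refer to the first score alone. With the rat as a block, all 9 serpins were lower in the periportal group with edgeR, against 15.9% of 9461 genes called lower, 10.4% called higher and 26.4% called in either direction. Serpind1 stood at 640.0, 637, 699 and 384 CPM in pericentral nuclei of DA 1, DA 2, LEW 1 and LEW 2 and at 124, 219, 445 and 182 CPM in periportal nuclei. It fell in every rat and by the most of the 9 on average (log2 -1.74 ± 0.30, SE, adjusted p = 0.00142 in edgeR).

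Serpina6 stood at 451, 527, 369 and 268 CPM in the pericentral and 98.9, 208, 219 and 124 CPM in the periportal group (log2 -1.68 ± 0.27, SE, adjusted p = 0.00104 in edgeR). Serping1 went from 497, 393, 352 and 319 CPM to 109.9, 129, 226 and 192 CPM (log2 -1.62 ± 0.30, SE, adjusted p = 0.00201 in edgeR). Serpina1 moved least, from 7511, 5098, 7701 and 5286 CPM to 3852, 2963, 6307 and 4354 CPM (log2 -0.92 ± 0.28, SE, adjusted p = 0.0241 in edgeR). Of these genes Serpina6 and Serping1 had every periportal value below every pericentral value, and Serpina1 did not. The other 5 members lay between -1.11 for Serpinc1 and -1.55 for Serpina3c, with adjusted p-values of 0.00260 to 0.00991 in edgeR. Without DA nuclei replicate 2 only Serpind1, Serpina6 and Serping1, 3 of 9, passed, and the calls over all genes dropped as well, from 2494 of 9461 to 450 of 9183.

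The reference list moved with the serpins. It was 0.345, 0.462, 0.803 and 0.702 times as high in the periportal as in the pericentral group in DA 1, DA 2, LEW 1 and LEW 2, beside 0.388, 0.415, 0.762 and 0.739 for the summed serpins, and 9 of its 10 genes were called lower. Depth moved as well: the median UMIs per nucleus were 1277, 1438, 1413 and 1897 in the pericentral and 2674, 3029, 1777 and 2394 in the periportal group. When the split was made within 10 bins of depth instead, where 1036 of 9289 genes were called lower and 1746 in either direction, 7 of the 9 serpins were called lower (Serpina6 -0.86, Serpind1 -0.75, Serping1 -0.71, Serpina3c -0.65, Serpina3m -0.59, Serpinc1 -0.53 and Serpinf1 -0.53), while Serpina1 was at -0.34 (adjusted p = 0.0519 in edgeR) and Serpina4 at -0.29 (adjusted p = 0.0802 in edgeR). With a second set of landmarks, which holds the plasma protein genes Tf and Orm1 on its periportal side, 0 of 9 passed with edgeR and 8 of 9 changed sign, to values between 0.05 and 0.67, with Serpina6 at -0.07 (ratios of 0.678 and 0.805 in DA and 1.04 and 1.20 in LEW). Over all genes 356 of 9181 were called in that split. The direction in nuclei therefore rested on the choice of landmarks. It also differed in size between strains: in a test of zone by strain added after the data were seen, 8 of the 9 serpins were called with edgeR, each closer to 0 in LEW, against 9.02% of genes in either direction, 7% above 0 and 2.02% below, and within bins of depth 0 of 9 were. Serpina3c still had ratios nearer 1 in both LEW rats within these bins, at 0.550 and 0.595 in DA and 0.879 and 0.830 in LEW. The reference list did so too, at 0.651 and 0.826 in DA and 0.974 and 0.917 in LEW, so this order was not particular to Serpina3c. Library-size scaling moved the median of all genes from 0.09 to 0.42 and the calls from 986 higher and 1508 lower to 2905 higher and 799 lower, and kept 8 of 9 serpins lower, with Serpina1 at -0.58 (adjusted p = 0.0690 in edgeR).

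On the Visium sections, where a spot covers several cells, the zone ratios of the serpins were near 1. Spots were split by the same score, giving pericentral landmarks at 0.550 and 0.511 and periportal landmarks at 1.37 and 1.40 times as high in the periportal group of sections 1 and 2. There was no test over 2 sections, and the 95% intervals cover counting error only. Serpina4 was the highest toward the portal side in both sections, at 1.14 (1.12 to 1.17) and 1.20 (1.17 to 1.22), from 1469 to 1681 CPM and from 1367 to 1638 CPM. Serpinf1 was at 1.05 (1.02 to 1.08) and 1.13 (1.09 to 1.16), and Serpina1 at 1.06 (1.05 to 1.07) in section 1 and 1.06 (1.06 to 1.07) in section 2. Serpina6 was lower toward the portal side, at 0.951 (0.924 to 0.979) and 0.943 (0.916 to 0.971), as were Serpina3m, at 0.961 (0.935 to 0.988) and 0.942 (0.917 to 0.968), and Serpina3c, at 0.987 (0.977 to 0.998) and 0.966 (0.956 to 0.976). Serpinc1, Serpind1 and Serping1 had an interval that included 1 in at least 1 section. The reference list was at 1.11 and 1.12. With the first landmarks Serpina6, Serpina3m, Serpina3c and Serpinc1 were thus lower in the periportal group in all 4 rats of nuclei and in both sections. For Serpinc1 the interval of section 1 included 1. The differences were far smaller in the sections, and with the second landmarks none of these genes was lower in the LEW rats. Under the same landmarks and without bins of depth, Serpina1, Serpina4 and Serpinf1 had ratios under 1 in the nuclei and over 1 in the sections, whereas with the second landmarks each was over 1 in 3 of the 4 rats of nuclei.

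**Figure D5:**
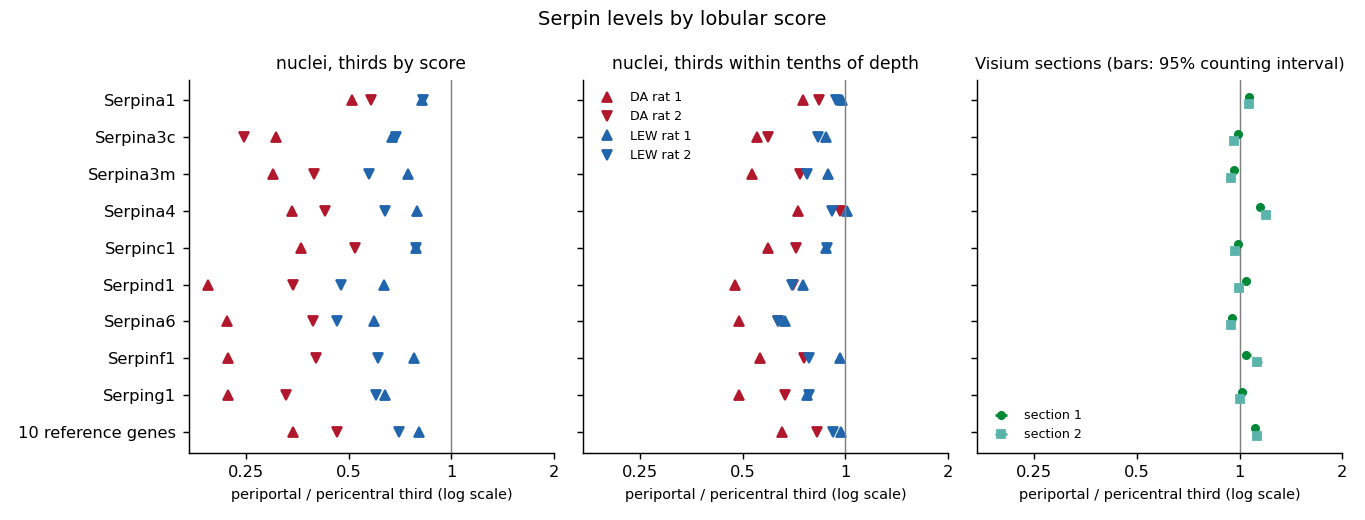
Ratio of periportal to pericentral CPM (log axis) per rat in hepatocyte-like nuclei split by score (left) and split by score within 10 bins of depth (middle), and per Visium section with its 95% counting interval (right). All points of the left panel lie under 1 (0.193 to 0.824), those of the middle panel lie between 0.474 and 1.01, and those of the right panel between 0.942 and 1.20.

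The partners of the serpins in plasma were followed as lists. Of 21 measured genes of coagulation and fibrinolysis, the pathway held in check by Serpinc1 and Serpind1, 0 passed for strain in hepatocyte-like TLH cells and nuclei with edgeR (median -0.04 and 0.21, beside -0.01 and 0.03 for all genes), 3 were lower in LEW in other TLH cells (Proz, F7 and F9 at -0.70, -0.68 and -0.57), and 12 were lower in the periportal nuclei, led by F13b at -1.70, Hrg at -1.41, Plg at -1.28 and F2 at -1.26. The shares of all genes called lower were 4.19% and 15.9% in these 2 comparisons. In cells against nuclei, scaled by TMM, 7 were higher and 4 lower, from F9 at 0.92 to F5 at -1.30, against 34.8% and 38.4% of all genes. Of 8 tested genes of the C1 and lectin path and C3, the targets and neighbours of Serping1, 0 passed for strain in hepatocyte-like TLH cells and nuclei, C1s was lower in LEW in other TLH cells (-0.56), and 4 were lower in periportal nuclei, with C1r at -1.64, C1s at -1.61 and C3 at -1.1. In cells against nuclei, again scaled by TMM, 3 of 9 were higher and Masp1 was lower, at -2.37. The zone values of both lists come from the split by the first landmarks. The fall in that split was not particular to these genes, since 9 of the 10 reference genes fell too. With the second landmarks the summed reference list had periportal to pericentral ratios of 0.872 and 1.24 in the DA and 1.65 and 1.55 in the LEW rats.

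Of 8 tested protease inhibitors outside the serpin family, Itih2, a hyaluronan-binding plasma inhibitor chain, was higher in LEW hepatocyte-like TLH cells by 1.34 ± 0.15 (SE, adjusted p = 0.00267 in edgeR), and 5 were lower in periportal nuclei, led by Ambp at -1.49 and Fetub at -1.06. In cells against nuclei, scaled by TMM, 2 of the 8 were higher, Cst3 at 2.18 and Ambp at 1.08. Of all genes 34.8% were called higher in cells and 15.9% lower in periportal nuclei. The 4 hormone and vitamin carriers, Ttr, Rbp4, Gc and Alb, share the carrier role of Serpina6. They had 0 strain calls in hepatocyte-like TLH cells and nuclei. With TMM scaling all 4 were higher in cells than nuclei, though the CPM ranges of Alb given above overlapped. Split by the first landmarks, all 4 were lower in periportal nuclei, from Gc at -1.66 to Alb at -1.08. For the coagulation, complement, inhibitor and carrier lists, values with library-size scaling or the second landmarks are not given here. In the reference list Fabp1 was higher in LEW hepatocyte-like TLH cells, by 0.91. With edgeR these 5 lists had no strain call in mesenchymal-like TLH cells or in other nuclei.

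Of the 31 other serpins only a few were measurable, and those that differed by strain were low in hepatocytes. Serpina7, thyroxine-binding globulin, was at 2.25 and 1.07 CPM in DA and 6.27 and 11.8 CPM in LEW (log2 2.5, adjusted p = 0.0313 in edgeR). Serpinh1, the collagen chaperone HSP47, was at 14.3 and 11.2 CPM in DA and 4.09 and 6.23 CPM in LEW cells (log2 -1.30, adjusted p = 0.0287 in edgeR), and at 14.8 and 18.9 CPM against 3.30 and 3.73 CPM in nuclei (log2 -2.25, adjusted p = 0.0101 in edgeR). Of 12 tested in cells against nuclei with TMM scaling 7 were higher and 3 lower in cells, against 34.8% and 38.4% of all genes. Serpinf2, the plasmin inhibitor alpha-2-antiplasmin, was at 1.99 to 4.39 CPM in cells and 36.8 to 70.6 CPM in nuclei (log2 -3.14 ± 0.25, SE, adjusted p = 2.36e-07 in edgeR). In the zone split of nuclei by the first landmarks 5 were tested. Serpina5 was higher in the periportal group, by 1.13, and Serpina11 and Serpinh1 were lower, at -0.74 and -0.81. Of all genes 10.4% were called higher and 15.9% lower in that split.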

How the data were processed

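The study measured RNA in rat liver cells, nuclei and tissue sections. Reads had been aligned by the authors to a custom Rnor_6.0 reference with Cell Ranger 3.1.0 (Space Ranger 1.1.0 for the sections). The deposited values are whole UMI counts for each gene in each barcode or spot, for barcodes that Cell Ranger had called, not normalized and before the study's own filters on cells. This comes from the file headers and the study's methods. Neither gene nor barcode names accompany the counts of TLH and immune-enriched samples, so genes were named by row from the gene list of the nuclei, which has the same number of rows, and shared barcodes could be counted only among nuclei (1 to 6 kept barcodes per pair of libraries).

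TLH cells were kept with at least 1500 UMIs (DA replicate 1) or 2000 UMIs (the other TLH rats). The study's methods state 1500 UMIs for both LEW rats, but 2000 gave the study's numbers of LEW cells, 5457 and 3844. The stated limit of 1500 UMIs for LEW cells was run as an alternative. The mitochondrial limit of TLH cells was 30% of UMIs in DA replicate 1, 20% in DA replicate 2 and 40% in both LEW rats. This limit therefore differed between the strains compared in TLH cells. Nuclei and immune-enriched cells were kept with at least 1000 UMIs and at most 10% and 50% mitochondrial UMIs, respectively. Counts were normalized with sctransform 0.4.2 without any serpin gene and reduced with irlba 2.3.5.1. A Harmony-type correction by library was then applied, before clustering with Seurat 5.3.0 in R 4.3.3. It moved the share of same-library neighbours from 93.2% to 37.8% in TLH, 86.6% to 44.6% in nuclei and 89.8% to 71.8% in immune-enriched cells. Clusters were named from marker lists by at least 3 markers among their leading genes, and names may differ from those of the study. Scrublet in scanpy 1.11.5 called 1 to 21 doublets per library, too few to use as a caller, so the top 6% of its scores were left out as an alternative.

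Cells of a rat are not replicates. UMIs were summed per rat and class and tested with the two-sided quasi-likelihood test of edgeR 4.0.16 (TMM, default filter on low counts, robust, Benjamini-Hochberg over all genes tested at 0.05), with strain as a covariate for cells against nuclei and the rat as a block for zone. DESeq2 1.42.0 was the alternative test. Every adjusted p comes from edgeR unless DESeq2 is named. Intervals are exact 95% counting intervals of UMI sums from scipy 1.17.1 and cover counting error only; a count of 0 is given the limit of 3 counts. Class and section ratios, and the immune-enriched samples with 1 rat per strain, had no test. The sums behind the hepatocyte-like values held 7062844 to 13097636 UMIs per rat in TLH cells and 4112027 to 9407813 in nuclei.

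The serpins, gene lists and tests were chosen with earlier results of these data known. Besides the listed serpins, the text names up to 4 genes per list and comparison with the largest change among those past the threshold, and the 3 genes most like each serpin. Alternatives were another scaling, no filter on low counts, a stricter filter on cells, each library left out, the replicate number as a block, doublet scores, other landmarks, group sizes and thinning for zone. Library-size scaling, crossed replicate blocks, the split within 10 bins of depth, subtraction of the profile of the lowest 10% of barcodes and the test of zone by strain were chosen after seeing the data. Serpina3n was not analysed here, and some genes that this rule names are not reported here.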

Additional observations from a re-analysis of the deposited data

Results flagged for a closer look

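The zone difference of the serpins in nuclei differed between strains for 8 of the 9 members, in a test of zone by strain with edgeR that was added after the data were seen (7% of 9461 genes were called with a positive value and 9.02% in either direction). The periportal to pericentral difference was closer to 0 in LEW than in DA, so the value of LEW minus DA was positive: 1.56 for Serpina3c, 1.45 for Serpinf1, 1.45 for Serping1, 1.33 for Serpind1, 1.18 for Serpina3m, 1.15 for Serpina4, 1.11 for Serpinc1 and 1.07 for Serpina6, all on the log2 scale. Serpina1 was at 0.84 (adjusted p = 0.0572 in edgeR). The SE, which rests on a variance shared between genes, ran only from 0.29 for Serpina3m to 0.30 for Serpina1. Serpina3c showed the pattern in its ratios of periportal to pericentral CPM, which were 0.306 and 0.247 in the DA rats and 0.671 and 0.690 in the LEW rats.

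The reference list moved in the same way, with 9 of its 10 genes called, and so did the depth of the nuclei, whose correlation with the zone score (logarithm of UMIs) was 0.371 and 0.351 in the DA rats and 0.195 and 0.151 in the LEW rats. With the split made within 10 bins of depth 0 of the 9 serpins were called with edgeR, and of all genes 7 were called in place of 853. The ratios per rat, a description with no test, were then nearer to each other, with Serpinc1 at 0.593 and 0.718 in DA and 0.875 and 0.881 in LEW, and Serping1 at 0.486 and 0.663 in DA and 0.771 and 0.783 in LEW. Without LEW replicate 1 or LEW replicate 2 the serpins called were also 0 of 9 (2 and 6 of all genes), without DA replicate 1 or 2 it was 9 of 9 (577 and 1775 of all genes), and with library-size scaling it was 3 of 9. That scaling moved the calls over all genes from 662 above and 191 below 0 to 100 above and 134 below, and their median from -0.09 to -0.33.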

How the results depend on the processing

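With 2 rats per strain the precision is limited by the number of rats, and the part of counting error was not measured apart. Counts of serpins called kept within 1.5 times of the main count except as follows and for 2 fits of the replicate block given further on. For strain in hepatocyte-like TLH cells (0 called) no filter on low counts gave 2 and the stricter filter on cells 1. In other TLH cells (1 called) no filter gave 6, the stricter filter 2 and leaving out 1 rat 0 to 6. In mesenchymal-like TLH cells (1 called) no filter and the stricter filter gave 2 each, leaving out 1 rat 0 to 2, and leaving out high doublet scores or using a limit of 1500 UMIs 0 each. For cells against nuclei (8 called) library-size scaling gave 2, also without mitochondrial transcripts. For zone in nuclei (9 called) the second landmarks gave 0 and leaving out 1 rat 3 to 9. The calls over all genes moved as well. In other TLH cells the stricter filter gave 479 of 7660 genes, against 753 of 9665 in the main fit. In mesenchymal-like TLH cells the main fit called 143 of 5322 genes, no filter 315 of 13318 and the stricter filter 140 of 2036. There, leaving out high doublet scores gave 59 of 4814 and the limit of 1500 UMIs 109 of 5942. The cause was not tested. The median log2 ratio of the serpins in hepatocyte-like over other nuclei, -0.23, was -0.85 with the stricter filter and 0.72 without unnamed clusters, and the median log2 strain difference in the immune-enriched samples, 0.34, was 0.016 with the stricter filter.

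Changes of sign among single serpins, in log2 units, were as follows. With library-size scaling cells against nuclei gave -0.55 for Serpinc1, -0.083 for Serpind1 and -0.23 for Serpinf1, and without mitochondrial transcripts -0.47, -0.0043 and -0.15. It also turned the strain value of Serpinf1 in hepatocyte-like nuclei (-0.0036) and of Serpina3m and Serpinf1 in other nuclei (-0.027 and -0.020). In other nuclei Serpinc1 was at 0.011 with DESeq2 size factors, 0.011 with the DESeq2 test and 0.029 with no filter, Serpina3m at -0.14 with the stricter filter and -0.0079 without high doublet scores, and Serpina3c, Serpinc1 and Serpina6 at 0.0035, 0.38 and 0.37 without unnamed clusters. In mesenchymal-like TLH cells Serpina1 was at -0.013 with the stricter filter and Serpina4 at 0.19 with 1500 UMIs. The stricter filter turned the strain difference between cells and nuclei of Serpina1 (-0.0093) and Serpina6 (-0.020). With the second landmarks the zone values were 0.26 for Serpina1, 0.096 for Serpina3c, 0.13 for Serpina3m, 0.67 for Serpina4, 0.055 for Serpinc1, 0.14 for Serpind1, 0.36 for Serpinf1 and 0.11 for Serping1.

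Leaving out 1 rat at a time gave these ranges where a sign changed. For strain in hepatocyte-like TLH cells they were -0.029 to 0.29 for Serpina4 and -0.39 to 0.10 for Serpinf1. In hepatocyte-like nuclei they were -0.077 to 0.76 for Serpina1, -0.46 to 0.44 for Serpina3m, -0.13 to 0.74 for Serpina4, -0.19 to 0.25 for Serpinc1, -0.47 to 0.79 for Serpind1, -0.78 to 0.14 for Serpina6, -0.46 to 0.38 for Serpinf1 and -0.15 to 0.36 for Serping1. In other TLH cells they were -0.093 to 0.51 for Serpina1 and -0.58 to 0.067 for Serpina4, and in mesenchymal-like TLH cells -0.017 to 0.46 and -0.44 to 0.13 for the same genes. In other nuclei they were -0.42 to 0.24 for Serpina3c, -0.15 to 0.32 for Serpina3m, -0.079 to 0.11 for Serpinc1, -0.27 to 0.75 for Serpind1, -0.071 to 0.0054 for Serpina6 and -0.043 to 0.27 for Serpinf1. For the strain difference between cells and nuclei they were -0.34 to 0.53 for Serpina1, -0.82 to 0.11 for Serpina3m, -0.65 to 0.24 for Serpina4, -1.05 to 0.25 for Serpind1, -0.28 to 0.66 for Serpina6 and -0.58 to 0.29 for Serpinf1.

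The replicate numbers in the titles did not show a pairing of the samples: deviations of DA and LEW rats of the same number had a correlation of -0.23 in TLH and 0.12 in nuclei, and those of cells and nuclei of the same number -0.35 in DA and 0.17 in LEW. Matched by the animal numbers in the sample names, which cross the DA numbers, the last 2 were 0.35 and 0.17. With 2 rats per group the crossing only turns the sign of the DA value, and the LEW value is the same one. These values therefore cannot show whether cells and nuclei share animals, and the nuclei are described as coming from further rats. With the replicate number as a block the genes called for strain moved from 433 to 208 in hepatocyte-like TLH cells, 126 to 545 in hepatocyte-like nuclei, 753 to 558 in other TLH cells, 145 to 228 in other nuclei and 143 to 244 in mesenchymal-like TLH cells, and those for cells against nuclei from 8208 to 8496. This block left the number of serpins called unchanged in each of these, and in hepatocyte-like nuclei turned Serpina3m (-0.0077) and Serpinf1 (-0.029). With the numbers crossed, the pairing gave 597, 958, 361 and 8749 genes for hepatocyte-like, other and mesenchymal-like TLH cells and for cells against nuclei, with 0, 1, 2 and 8 serpins, and the crossing for cells against nuclei is that of the animal numbers. Zone without the replicate block called 3 serpins and 228 genes, against 9 and 2494.

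Over all alternatives the genes called ran from 142 to 1140 for strain in hepatocyte-like TLH cells, 39 to 545 in hepatocyte-like nuclei, 131 to 1427 in other TLH cells, 30 to 466 in other nuclei, 59 to 361 in mesenchymal-like TLH cells, 6967 to 9589 for cells against nuclei, 0 to 27 for the strain difference between cells and nuclei, and 228 to 4947 for zone. The planned subtraction of the profile of barcodes under 500 UMIs was not run, since DA replicate 2 of TLH had 0 such barcodes, and the lowest 10% of barcodes were used in its place.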

Other observations

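Among the intracellular clade B serpins, Serpinb6b was higher in LEW in other TLH cells, by 0.91 (adjusted p = 0.0192 in edgeR), and Serpinb9, an inhibitor of granzyme B, was lower in LEW in other nuclei, at -1.48 (adjusted p = 0.0206 in edgeR). Serpinb6b was not called in other nuclei (adjusted p = 0.973 in edgeR), nor Serpinb9 in other TLH cells (adjusted p = 0.825 in edgeR). Serpinb6b stood at 5.66 and 9.09 CPM in DA and 6.20 and 9.12 CPM in LEW in other nuclei. It stood at 118 CPM in the DA and 63.1 CPM in the LEW immune-enriched rat. Serpinb9 stood at 30.3 and 39.4 CPM in DA and 40.2 and 28.5 CPM in LEW in other TLH cells. Without a call, Serpinb9 was lower in LEW in hepatocyte-like nuclei (log2 -0.77) and hepatocyte-like TLH cells (log2 -0.34). It was higher in LEW in mesenchymal-like TLH cells (log2 0.39), also without a call. Whether either strain difference differed between other TLH cells and other nuclei was not tested. The mix of classes among other TLH cells differed between strains, as given above, and its part in these values was not tested. The correlation between the 9 listed serpins over the class-by-library sums was 0.50 between Serpina1 and Serpina3c and 0.82 between Serpina1 and Serpina4, a description over sums that share libraries.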
